A study of Mus musculus with 12 samples.

Results

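The 37 forkhead (Fox) genes listed by name were followed through H3K27me3 and H3K4me3 in bone marrow progenitors that had lost Ints11. All 37 of 37 were found among the 21887 protein-coding genes of a RefSeq table with the positions of the mouse genome build mm10. They were chosen as a family that runs from silent developmental factors to active blood factors, and not by their values. Earlier results of these data were known when they were chosen. Each gene was described by the bases covered by peaks within 5 kb of its span and by the width of the widest peak reaching that window.

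The Ints11 knockout (KO) mice were Mx1Cre+ and carried a floxed Ints11 gene, and KO_399 and KO_401 name the 2 mice by the numbers in the labels. The wild-type (WT) mice WT_407 and WT_409 were littermates, and the labels do not say whether they carried the Cre transgene or the floxed allele. All mice were of the strain C57BL/6, and cKit+ bone marrow cells, lineage-negative by the series design, were sorted 4 days after poly(I:C) in both genotypes. The labels give no age or sex. Ints11 encodes the catalytic subunit of Integrator, an RNA-cleaving complex. Mx1Cre is driven by an interferon-inducible promoter that is not restricted to blood cells, and poly(I:C), an inducer of interferon, was given to both genotypes. Peak lists cannot check the deletion.

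Forkhead factors bind DNA through the winged-helix forkhead domain. Most members are factors of embryonic patterning that Polycomb complexes keep silent outside their own tissue, and trimethylation of lysine 27 of histone H3 (H3K27me3) is the mark of that silencing. H3K4me3 marks promoters that are active or poised. Promoters that carry both marks are called bivalent. In blood, the FOXO factors downstream of PI3K and AKT keep stem cells quiescent and limit oxidative stress, FOXP1 acts in lymphocyte development, FOXP3 defines regulatory T cells and FOXM1 drives mitotic genes.

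The data were 8 lists of peaks, 1 for each mark and mouse. The H3K27me3 lists held 6542 and 7653 peaks in KO and 11930 and 9838 in WT, which covered 15.2 and 23.1 Mb in KO and 34.5 and 31.5 Mb in WT. The H3K4me3 lists held 27676 and 25090 peaks in KO, and 25145 and 26279 in WT. Every listed peak had a fold over background above 5 as given by the authors' caller, so a gene without a peak may have had one under that fold. Read totals were not used here. The background at the summits, recovered from the deposited fold and p-value, was 3.30 and 3.67 reads per position in KO and 3.09 and 3.15 in WT for H3K27me3. For H3K4me3 it was 2.65 in KO_399 and 1.93 in KO_401, against 2.23 in WT_407 and 1.94 in WT_409. All 8 fixed markers of stem and progenitor cells had H3K4me3 in all 4 libraries, with 77477 and 62325 bp in KO and 56923 and 60315 bp in WT. Cd34 and Gata2, 2 of the 8, had more in both KO libraries, against 22.1% of all marked genes, and the other 6 overlapped. Of 7 B cell markers 6 and 5 were marked in KO_399 and KO_401, and 5 and 7 in WT_407 and WT_409. Their summed length was 21647 and 12861 bp in KO, against 11752 and 32043 bp in WT. The 6 markers of stroma and endothelium, of which 6 and 4 were marked in KO and 5 and 4 in WT, had 12007 and 6640 bp in KO and 4864 and 4008 bp in WT. Of 6 erythroid markers, 3 were marked in each KO library, and 3 and 5 in WT. They had 9627 and 7862 bp in KO and 7736 and 12308 bp in WT, and Hbb-bs and Slc4a1 were marked in WT_409 alone. The 6 mature myeloid markers, marked in every library, had 45755 and 40077 bp in KO, and 32420 and 53156 bp in WT. The 6 T cell markers had 5491 and 4733 bp in KO and 4594 and 5175 bp in WT, with none at Cd3e, Cd8a and Bcl11b. Whether these markers bear on the values of the Fox genes was not tested.

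Promoters of 4 genes on which the results below turn are shown. Each sequence runs from 250 bases before to 50 bases after a start site in RefSeq (GRCm38.p6), with every CpG dinucleotide in capitals. Foxo1 had the largest H3K27me3 difference after Foxo6, Foxj2 had the mark in WT mice only, Foxa1 lay in an unbroken domain in WT, and Foxi1 had neither mark.
Foxo1, chr3:52268087-52268386, plus strand: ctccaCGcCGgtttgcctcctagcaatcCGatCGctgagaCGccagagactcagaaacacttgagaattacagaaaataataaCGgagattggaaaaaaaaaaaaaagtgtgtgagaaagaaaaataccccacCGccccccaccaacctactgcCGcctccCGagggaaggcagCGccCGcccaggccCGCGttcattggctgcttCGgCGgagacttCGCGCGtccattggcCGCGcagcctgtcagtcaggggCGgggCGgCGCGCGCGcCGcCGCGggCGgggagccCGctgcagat
Foxj2, chr6:122819934-122820233, plus strand: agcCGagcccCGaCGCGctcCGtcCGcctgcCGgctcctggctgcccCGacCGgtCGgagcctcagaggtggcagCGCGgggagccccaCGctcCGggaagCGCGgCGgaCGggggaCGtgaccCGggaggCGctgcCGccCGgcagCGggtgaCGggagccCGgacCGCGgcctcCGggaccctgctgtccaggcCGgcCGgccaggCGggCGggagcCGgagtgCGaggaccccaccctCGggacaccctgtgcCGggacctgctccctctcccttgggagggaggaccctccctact
Foxa1, chr12:57546062-57546361, minus strand: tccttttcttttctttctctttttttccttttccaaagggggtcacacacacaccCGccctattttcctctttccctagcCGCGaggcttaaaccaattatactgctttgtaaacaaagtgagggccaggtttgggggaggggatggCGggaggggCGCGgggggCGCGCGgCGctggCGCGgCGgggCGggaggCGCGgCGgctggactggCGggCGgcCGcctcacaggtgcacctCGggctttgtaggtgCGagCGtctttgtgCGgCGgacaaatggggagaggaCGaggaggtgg
Foxi1, chr11:34208040-34208339, minus strand: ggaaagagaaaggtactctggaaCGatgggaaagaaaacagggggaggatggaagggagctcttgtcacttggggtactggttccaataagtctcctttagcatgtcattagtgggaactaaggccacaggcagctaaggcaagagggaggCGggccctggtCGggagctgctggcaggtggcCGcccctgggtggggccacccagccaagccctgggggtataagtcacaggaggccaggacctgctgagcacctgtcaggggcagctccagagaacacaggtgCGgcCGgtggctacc
The Foxo1 window holds 31 CpG, the Foxj2 window 37, the Foxa1 window 26 and the Foxi1 window 6. Observed over expected, these are ratios of 1.10, 0.804, 0.929 and 0.232.

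Promoter windows were listed for 22 of the 37 genes. Over the first listed window of each of the 22, the median CpG ratio was 0.733 and the median GC content 65.5%, against 0.576 and 56.3% over 17492 protein-coding genes. The 9 genes with both marks in all 4 libraries had a median CpG ratio of 0.787, and the 6 with H3K4me3 in all 4 and no H3K27me3 had 0.666. The forkhead motif was searched as GTAAACA on both strands. It was in 1 of the 27 windows of these 22 genes, that of Foxa1, and in 3.01% of all 21263 windows. No windows were listed for Foxb1, Foxc2, Foxe1, Foxf1, Foxh1, Foxj1, Foxk1, Foxl1, Foxm1, Foxn2, Foxo4, Foxo6, Foxp2, Foxq1 and Foxs1.

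H3K27me3 lay at 22 of the 37 genes in all 4 libraries, against 19.0% of all genes, and H3K4me3 at 27, against 64.3% of all genes. Both marks were present in all 4 libraries at 14 Fox genes, against 13.0% of all genes. These 14 were Foxa1, Foxa3, Foxc1, Foxd1, Foxd2, Foxe3, Foxf1, Foxf2, Foxj1, Foxo1, Foxo6, Foxp2, Foxp4 and Foxq1. Foxa2, Foxl1 and Foxn4 had H3K27me3 in all 4 libraries and no H3K4me3 in any. These act in endoderm, gut mesenchyme and the retina. Foxb1, Foxc2, Foxd3, Foxe1 and Foxl2 had H3K27me3 in all 4 libraries and H3K4me3 in 1 to 3 of them. H3K4me3 without any H3K27me3 was found in all 4 libraries at 11 genes, namely Foxh1, Foxj3, Foxk1, Foxk2, Foxm1, Foxn1, Foxn2, Foxn3, Foxo3, Foxo4 and Foxp3. Foxj2 and Foxp1 had H3K4me3 in all 4 and H3K27me3 only in WT libraries. Foxi1, a factor of the inner ear and of ion-transporting kidney cells, and Foxs1 had no peak of either mark in any library.

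**Figure D1:**
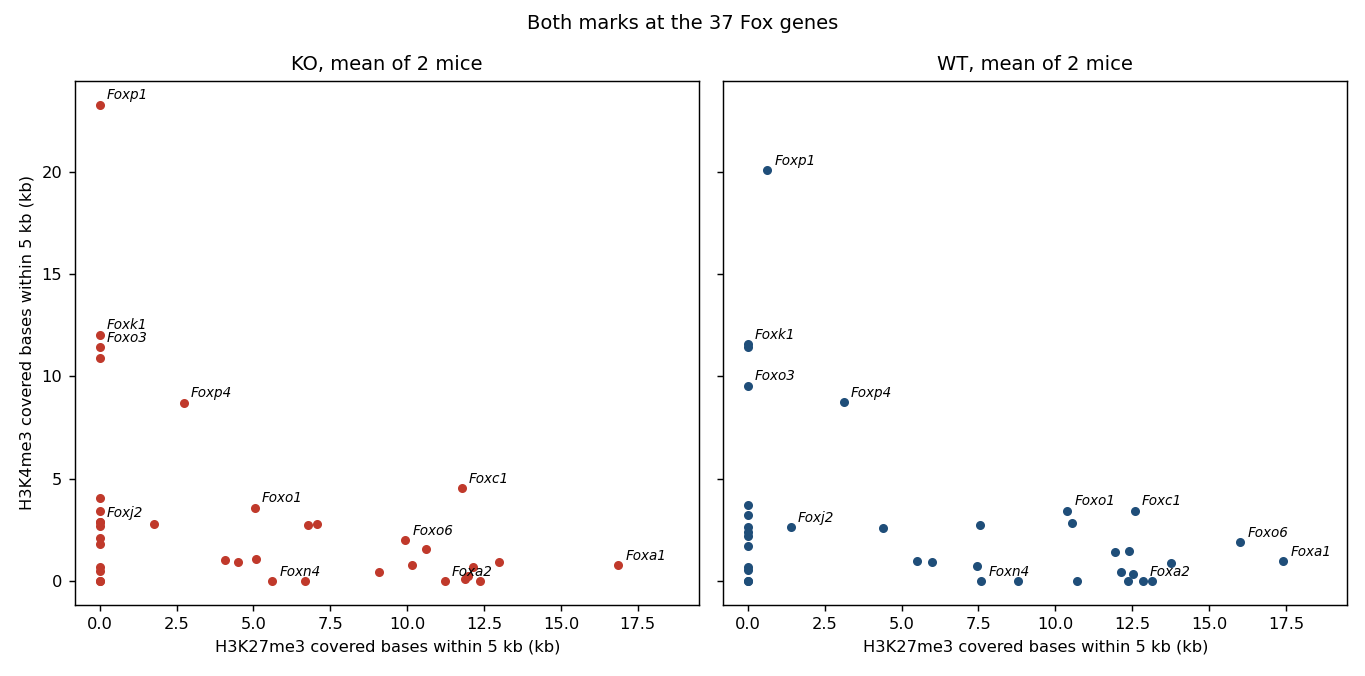
Each point is 1 of the 37 Fox genes, placed by its covered bases of H3K27me3 (x axis, kb) and H3K4me3 (y axis, kb) within 5 kb of the gene, as the mean of 2 KO mice (left) and 2 WT mice (right). Foxp1, Foxk1 and Foxo3 lie high on the H3K4me3 axis with little or no H3K27me3, and Foxa1 lies farthest out on the H3K27me3 axis in both genotypes.

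The first comparison asked how H3K27me3 at the Fox genes differed after loss of Ints11. Of 23 Fox genes with the mark in both WT libraries, 22 also had it in both KO libraries, against 4150 of 5579 over all genes. Most of these Fox genes had fewer bases under the mark in KO. Averaged over the 37 genes, H3K27me3 covered 5144 ± 540.0 bp per gene in KO and 6249 ± 83.1 bp in WT (SD, n = 2 mice each), or 82.3% of WT. Of the 24 genes with the mark in any library, 19 had less of it in each KO library than in either WT library, against 70.0% of all 6512 genes with the mark. No Fox gene had more, against 0.0154% of all such genes. At the other 5, Foxa1, Foxd2, Foxe1, Foxp1 and Foxp2, the groups overlapped. With 2 mice per genotype, an exact two-sided permutation test of a single value has only 6 labelings, the smallest p they allow is 0.333, and no gene could pass a threshold of 0.05. The mean difference was -1105 bp, and -723 bp without KO_399. Total H3K27me3 in the lists was lower in both KO libraries as well, and its part in these values was not tested.

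KO_399 was the lowest library at 20 of the 24 genes, against 72.8% of all genes with the mark. A fully covered window can show no further bases. At Foxe1, a thyroid factor, H3K27me3 covered all 12131 bp of the window in all 4 libraries. In WT_407 the windows of 5 genes and in WT_409 those of 6 genes were fully covered, against 1 in KO_399 and 2 in KO_401. Full windows were not counted over all marked genes. Among genes with at least 5000 covered bases in WT, 16 of 20 Fox genes had fewer in both KO libraries, against 88.8% of 2171 such genes.

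Shares of WT length kept in KO depended on the measure. At the 22 genes with the mark in all 4 libraries, the median share of WT covered bases kept in KO was 86.0%, against 67.6% over all 4150 genes with the mark in all 4. Full windows limit this measure, and with peaks counted at full length beyond the window the median of the 22 was 73.5%. No full-length value over all genes is given here, so 73.5% is not read against 67.6%. For the widest peak the medians were 55.9% for Fox genes and 67.5% for all genes. No test of this difference was run. The widest peak was narrower in both KO libraries at 21 of 24 genes, against 67.4% of all marked genes, and wider at none, against 0.0461%. Over the 37 genes it averaged 3367 and 5847 bp in KO, against 7924 and 7582 bp in WT. The difference of means was -3146 bp, and -1906 bp without KO_399. Peaks of at least 10 kb were found at 2 of the genes in KO_399 and 12 in KO_401, against 12 in WT_407 and 13 in WT_409. How often all marked genes had such peaks was not counted.

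**Figure D2:**
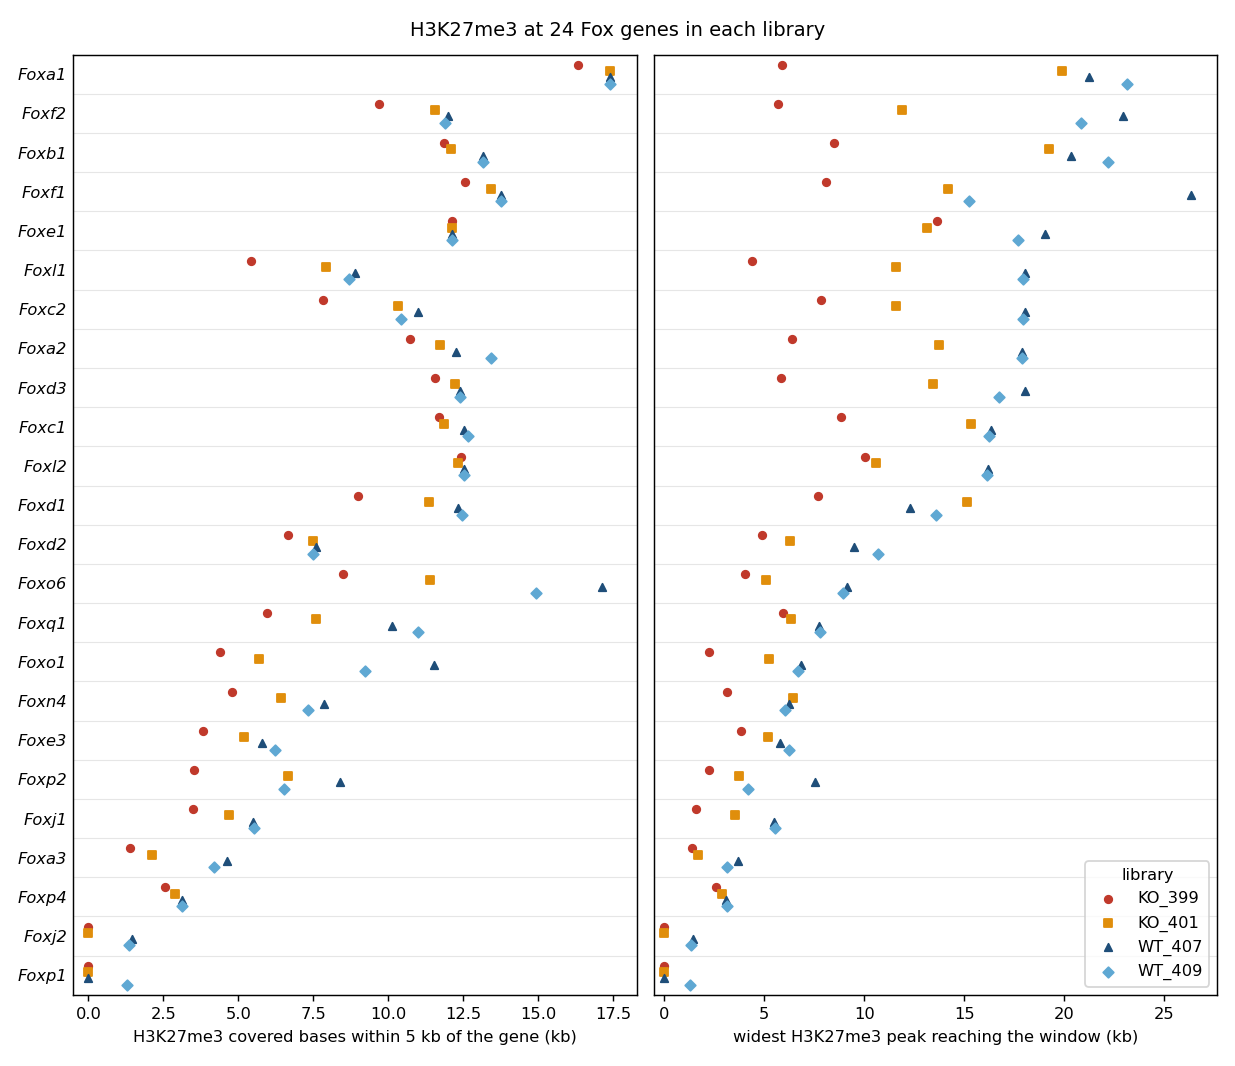
H3K27me3 covered bases within 5 kb (left, kb) and the widest H3K27me3 peak (right, kb) at the 24 marked Fox genes, sorted by the mean widest peak in WT. Each symbol is 1 library, KO above WT in each row. Within the window many genes differ little, but Foxo6, Foxo1, Foxq1 and Foxa3 keep only 39.8% to 64.1% of WT covered bases in KO. For the widest peak, KO_399 lies far to the left of the other libraries at Foxa1, but close to KO_401 at Foxe1 and Foxl2.

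Several domains that were 1 peak in WT were listed as several peaks in KO. In KO_399, 12 of the 24 genes had more peaks in the window than either WT library, and in KO_401, 6 did. The same count was not made over all marked genes, so it is not read as particular to the Fox genes. Foxa1, an endoderm pioneer factor, had 5 peaks in the window in KO_399 and 1 in each of KO_401, WT_407 and WT_409. Its widest peak was 5861 bp in KO_399 and 19912 bp in KO_401, against 21268 bp in WT_407 and 23126 bp in WT_409. With peaks of a library up to 1 kb apart joined, an alternative chosen after seeing the data, the domain at Foxa1 was 19886 and 21932 bp wide in KO and 24918 and 24329 bp in WT. After joining, the widest domain was narrower in both KO libraries at 20 of 24 Fox genes, against 69.4% of all marked genes. The median share of WT width kept was then 75.3% at the 22 Fox genes and 69.4% over all genes with the mark in all 4 libraries.

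The widest H3K27me3 peak of the family in any library was at Foxf1, a factor of gut and lung mesenchyme, where the widest was 8107 bp in KO_399 and 14208 bp in KO_401, against 26352 bp in WT_407 and 15225 bp in WT_409. Foxf1 lies 28.0 kb from Foxc2 on chromosome 8. Foxc2 lies 8.79 kb from Foxl1, so the windows of Foxc2 and Foxl1 overlap and are not independent. In KO_399 the widest peak was 7812 bp at Foxc2 and 4373 bp at Foxl1, and in KO_401 a peak of 11596 bp reached both windows. In both WT mice 1 peak, of 18043 and 17923 bp, reached both. Foxc2, which acts in lymphatic vessels, had 7812 and 10332 covered bp in KO, against 11000 and 10436 bp in WT. Foxl1 had 5416 and 7936 bp in KO and 8881 and 8698 bp in WT. The KO_401 value at Foxc2 lay just under the lower WT value, and without KO_399 the difference of means was -386 bp in place of -1646 bp. At Foxl1 it was -854 bp without KO_399 and -2114 bp with it, and -4822 bp with a fold of at least 8. The highest fold in KO_399 was 7.06 there, so that cutoff left KO_399 no peak.

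Foxq1, Foxf2 and Foxc1 lie in this order on chromosome 13, with 64.8 and 175 kb between them. Foxq1, mutated in satin mice with abnormal hair, had 5956 and 7575 bp in KO, against 10107 and 10987 bp in WT. Its difference of -3782 bp was -422 bp with a window of 2 kb, -1616 bp with the same covered length and -6195 bp with a fold of at least 8. That cutoff left KO_399 no peak at Foxq1, where its highest fold was 6.27. At Foxf2 the values were 9693 and 11553 bp in KO and 11986 and 11880 bp in WT. Foxc1 had 11697 and 11850 bp in KO and 12524 and 12645 bp in WT, so that the groups were apart by under 1 kb. Foxc1 is needed in the CXCL12-producing stromal cells of the marrow niche as well as in the embryo.

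Foxd1, a factor of kidney stroma, was among the 10 genes with the largest separated differences, but its widest peak did not separate the genotypes. Covered bases were 8979 and 11344 in KO and 12335 and 12461 in WT, and without KO_399 the difference of means was -1054 bp in place of -2237 bp. It was -3935 bp with a window of 10 kb and 0 bp with 2 kb, as it was at Foxc2 with 2 kb. The widest peak was 7676 and 15156 bp in KO, against 12309 and 13594 bp in WT, with KO_401 the widest of the 4. Joined over gaps of up to 1 kb, the domain was 18190 and 19823 bp in KO and 22302 and 21983 bp in WT. Foxa2, another endoderm pioneer, had 10719 and 11712 bp in KO and 12262 and 13418 bp in WT, and its difference of -1625 bp was -432 bp with a window of 2 kb and -4332 bp with 10 kb. Foxn4, which acts in retinal progenitors, had 4784 and 6418 bp in KO, against 7853 and 7334 bp in WT. The lens factor Foxe3 had 3817 and 5186 bp in KO and 5784 and 6215 bp in WT. Without KO_399 the differences at Foxn4 and Foxe3 were -1176 and -814 bp, in place of -1993 and -1498 bp. At Foxn4 it was -549 bp with a window of 2 kb and -532 bp with lists made equal in peak number or in covered length.

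Foxa3, a liver factor, kept the least of the 22 genes, 39.8% of its WT covered bases. It had 1372 and 2133 bp in KO, and 4613 and 4186 bp in WT, with no overlap between groups. The difference was -2647 bp, -2189 bp with the same number of peaks per library and -315 bp with the same covered length. The main peak of 1372, 1694, 3696 and 3134 bp in KO_399, KO_401, WT_407 and WT_409 covered the start site of Foxa3. The other peak, near the far end of the gene, was not listed in KO_399 and spanned 439 bp in KO_401, against 917 and 1052 bp in WT.

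Of the FOXO genes, Foxo1 and Foxo6 carried H3K27me3 and Foxo3 and Foxo4 had none in any library. Foxo6, which is expressed mainly in the brain, had the largest separated difference, with 8474 and 11400 bp in KO and 17127 and 14906 bp in WT. It carried 2 domains. The domain at the lower coordinates held 4037 and 4420 bp in KO, against 8004 and 5986 bp in WT, and that at the higher coordinates 4437 and 6980 bp in KO and 9123 and 8920 bp in WT.

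Foxo1 had 4390 and 5688 bp of H3K27me3 in KO, against 11529 and 9237 bp in WT, or 48.5% of WT. Both KO values lay well under both WT values. The domain over the start site was 4390 and 5222 bp in KO, and 6816 and 6704 bp in WT, so most of the difference lay elsewhere. From 69887 to 81063 bp downstream of the start, in the 3′ part of the gene, KO_401 had 1 peak of 466 bp and KO_399 none. In the same stretch WT_407 had peaks of 676, 1878, 1423 and 736 bp and WT_409 of 1423 and 1110 bp. The difference at Foxo1 of -5344 bp was -2666 bp with the same number of peaks per library and turned to 1398 bp when each library was held to the same covered length by its strongest peaks, so its direction depends on that choice. At the start site itself, H3K27me3 filled 1619 and 2001 of 2001 bp in KO and 2001 bp in both WT libraries. H3K4me3 filled 2001 and 1889 bp there in KO and 2001 and 1995 bp in WT.

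**Figure D3:**
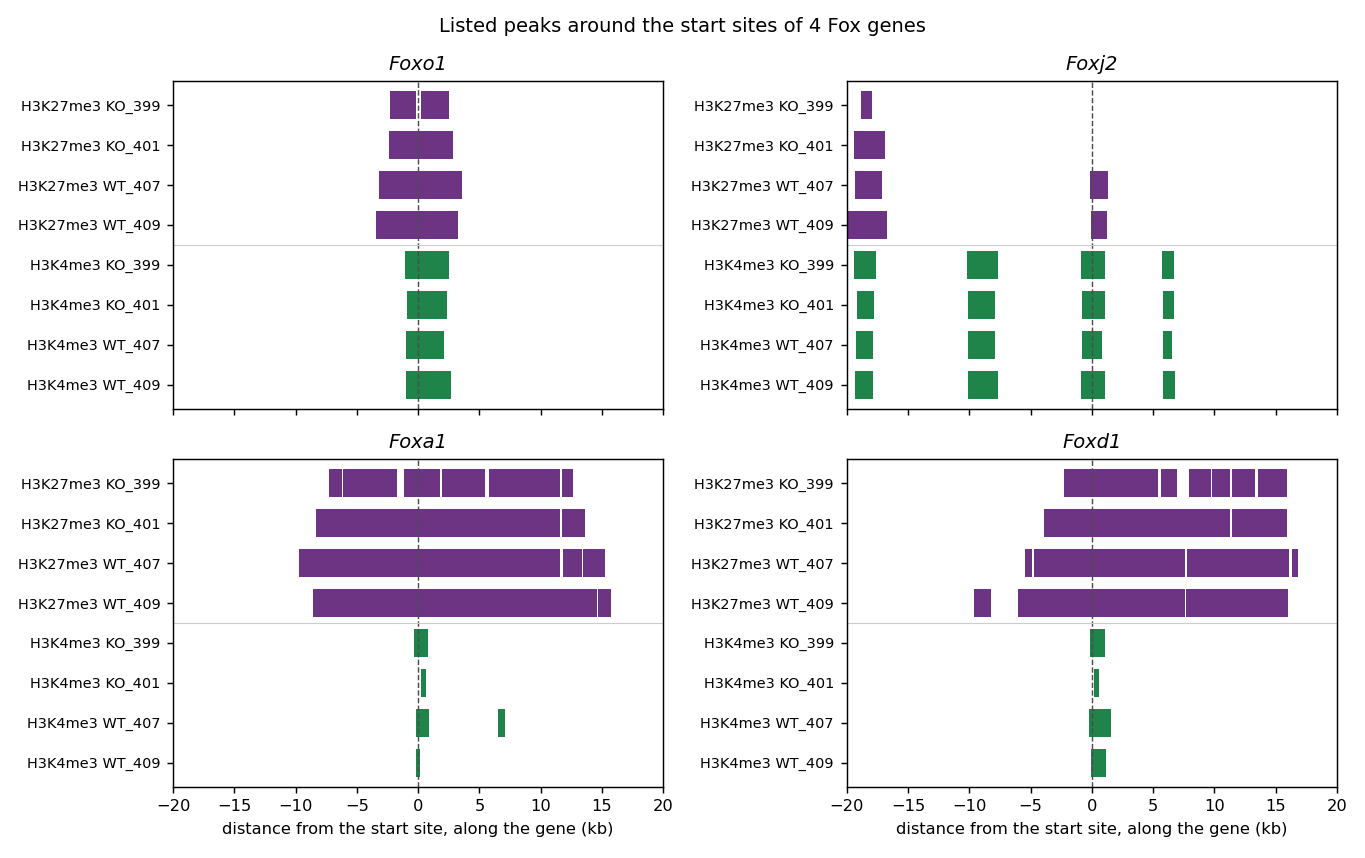
Listed peaks of H3K27me3 (purple) and H3K4me3 (green) within 20 kb of the start sites of Foxo1, Foxj2, Foxa1 and Foxd1 in each library, along the direction of the gene (x axis, kb). The H3K27me3 peak over the start of Foxj2 is listed in WT_407 and WT_409 only, and the domain at Foxa1 is broken into pieces in KO_399.

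Foxj2, a widely expressed activator, was the single Fox gene with H3K27me3 in both WT libraries and in neither KO library, against 8.26% of all marked genes. The peak was 1444 bp wide in WT_407 and 1337 bp in WT_409 and began close to the start site. By −log10 q it stood at percentile 54.4 of the WT_407 list and 29.5 of the WT_409 list, whereas the strongest peaks of the 22 genes with the mark in all 4 libraries had medians of 96.1 and 94.0 there. H3K4me3 covered 1919 and 1837 of the 2001 bp around this start site in KO, and 1674 and 1861 bp in WT. Both marks overlapped over 944 and 1137 bp in WT. Foxp1 had an H3K27me3 peak of 1271 bp in WT_409 alone, at percentile 8.42 of that list.

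Of the FOXP genes, Foxp2 and Foxp4 had H3K27me3 in all 4 libraries. Foxp4, known from lung and gut epithelium, had 2563 and 2888 bp in KO, and 3107 and 3134 bp in WT. Foxj1, the regulator of motile cilia, had 3489 and 4676 bp in KO and 5486 and 5513 bp in WT. Foxp2, a factor of brain circuits for vocal behaviour, had 3524 and 6654 bp in KO and 8387 and 6536 bp in WT, and the groups overlapped. Foxp3 had none.

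H3K4me3 was compared next in the same windows. Genotype did not order the family: the mark covered 3086 ± 569.6 bp per gene in KO and 2868 ± 4.62 bp in WT (SD, n = 2 mice each). The values behind these means were 3488 bp in KO_399 and 2683 bp in KO_401, against 2871 bp in WT_407 and 2865 bp in WT_409, so the KO mice lay on either side of the WT mice. Without KO_399 the difference of -185 bp had the opposite sign to that of 218 bp over all libraries. Of 32 genes with the mark in any library, 3 had more covered bases in both KO libraries, against 22.1% of all marked genes, and none had fewer, against 3.63%. The widest peak was wider in both KO libraries at 3 genes, against 23.6%, and narrower at none, against 4.06%. KO_399 was the highest library at 22 of 32 genes, against 72.4% of all marked genes, and its background at the summits was the highest of the 4 H3K4me3 libraries. Without KO_399, 4 genes had more and 14 had fewer in KO. Without KO_401, 22 had more. Without WT_407 and without WT_409, 10 and 7 had more and 4 and 5 had fewer. Counts with a mouse left out were not made over all marked genes, so they are not read against the shares above.

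The 3 genes with more H3K4me3 in both KO libraries were Foxp2, Foxn2 and Foxj3. Foxp2 had 1339 and 841 bp in KO, against 840 and 577 bp in WT, so that KO_401 and WT_407 were nearly equal. Its difference of 382 bp became 133 bp without KO_399, 631 bp without KO_401 and 250 bp without WT_409. With a fold of at least 8 it was 0 bp, and with the same covered length 0.5 bp. Foxn2 had 4107 and 3954 bp in KO and 3543 and 3901 bp in WT. Foxj3 had 2730 and 2638 bp in KO, against 2191 and 2588 bp in WT. Without WT_407 the differences at Foxn2 and Foxj3 were 130 and 96.0 bp, and without WT_409 they were 488 and 493 bp, in place of 309 and 295 bp. With a fold of at least 8 the difference at Foxn2 was 80.0 bp.

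Foxp1 had the most H3K4me3 bases of the family, with 27968 and 18558 bp in KO and 20375 and 19751 bp in WT, spread over the longest window of the family, 607405 bp. All 3 of its listed start sites were marked in every library. Foxo3 had 12828 and 10001 bp in KO and 8489 and 10603 bp in WT. The widest H3K4me3 peak of the family lay over its start site, with 6086 and 5669 bp in KO and 5542 and 5758 bp in WT. Foxk1, a widely expressed factor of metabolism, had 12608 and 11441 bp in KO and 11742 and 11407 bp in WT. A peak at the far end of its window, of 2246 and 1875 bp in KO and 1869 and 1790 bp in WT, also held an end of the neighbouring gene Ap5z1. Its paralog Foxk2 had 3268 and 2483 bp in KO, against 2503 and 2728 bp in WT. Foxp4 had 9479 and 7956 bp in KO and 8521 and 8940 bp in WT. Foxo1 had 3911 and 3236 bp in KO, and 3173 and 3689 bp in WT. Foxo4 had 2181 and 1985 bp in KO and 2122 and 2247 bp in WT, and Foxo6 had 2325 and 1680 bp in KO and 1959 and 1845 bp in WT. Foxm1 had 3789 and 3023 bp in KO, against 3145 and 3285 bp in WT. At all of these genes the groups overlapped.

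**Figure D4:**
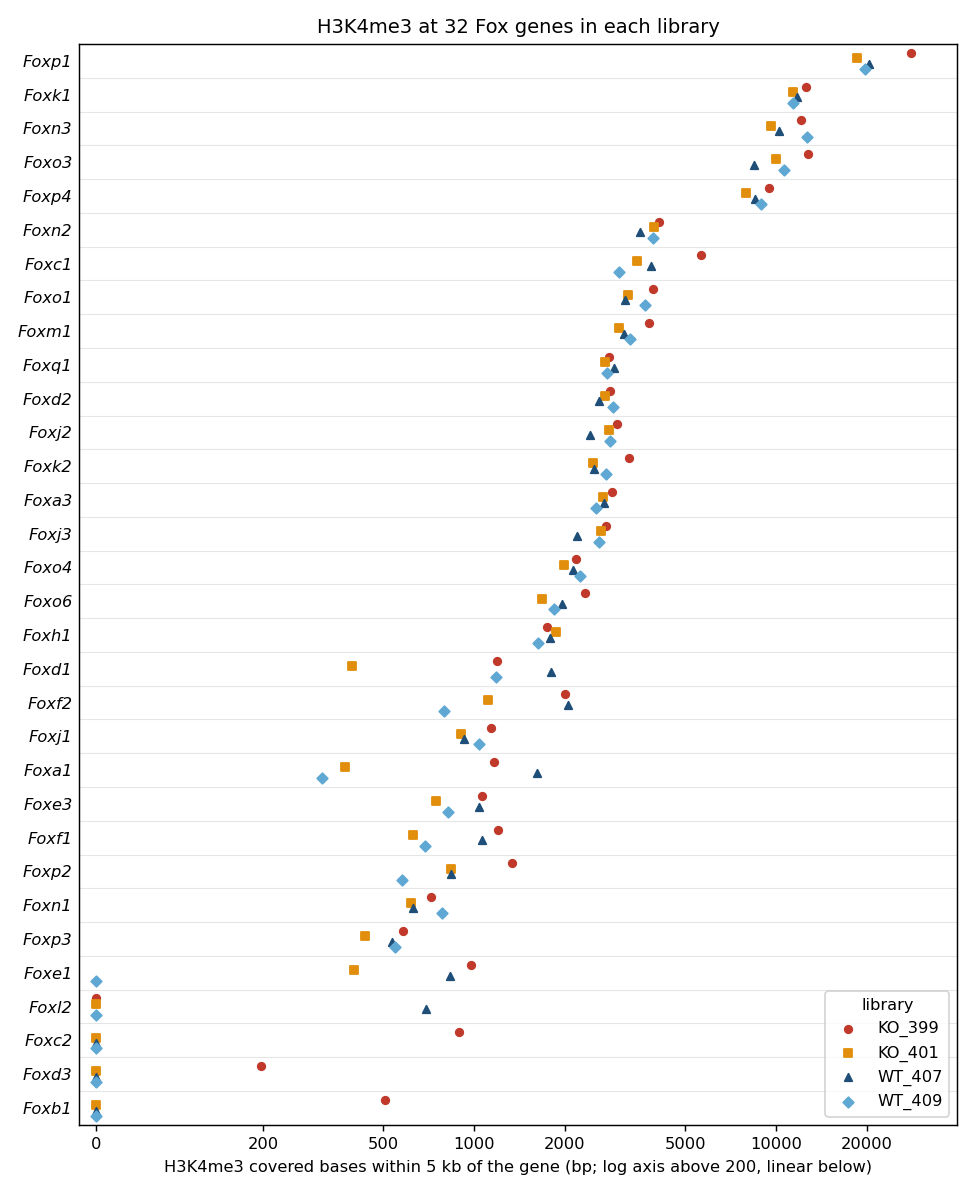
H3K4me3 covered bases within 5 kb of the 32 marked Fox genes (x axis, bp, logarithmic, with a linear stretch near 0), sorted by the mean in WT, with 1 symbol per library and KO above WT in each row. KO_399 is the rightmost symbol at 22 genes, and the KO and WT symbols are mixed at most genes.

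Some H3K4me3 within 5 kb of a Fox gene lay away from its listed start site or also reached a neighbouring gene. At Foxp3 the peak, of 2286 and 1914 bp in KO and 1959 and 1900 bp in WT, lay at least 4420 bp upstream and held ends of Ppp1r3f and Flicr. Within the window of Foxp3 it covered 581 and 434 bp in KO and 535 and 546 bp in WT. No library had either mark within 1 kb of the 2 listed start sites of Foxp3. The peak counted for Foxn1, the factor of thymic epithelium mutated in nude mice, lay 25809 bp from its listed start site. It was 717 and 618 bp wide in KO and 626 and 783 bp in WT. At Foxa3 the H3K4me3 peak over the start also held an end of Sympk, at Foxh1, a partner of Nodal signalling, an end of Ppp1r16a, and at Foxm1 an end of Rhno1. At the listed start site of Foxn3, which lies inside the gene span, no library had a mark. Its H3K4me3 included a peak of 4419 and 3562 bp in KO and 3986 and 4206 bp in WT. That peak held the upstream end of the span, as Foxn3 lies on the minus strand, and no start site was listed there. Within 1 kb of listed start sites, 8 of 22 genes had both marks in all 4 libraries, 5 had H3K27me3 in all 4 and H3K4me3 in fewer or none, 3 had H3K4me3 in all 4 and no H3K27me3, 2 had H3K4me3 in all 4 and H3K27me3 in some, and 4 had neither. Foxn3 is among these 4 by its listed start site alone.

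H3K4me3 overlapped between the genotypes at each of the next genes. Foxa1 had 1163 and 373 bp in KO and 1620 and 312 bp in WT. Foxd1 had 1190 and 393 bp in KO, against 1794 and 1178 bp in WT, the lowest share of WT among genes marked in all 4 libraries (53.3%). Foxe1 had 975 bp in KO_399 and a shorter peak in KO_401, and 829 bp in WT_407 with none in WT_409. In KO_399 alone, Foxb1 had 505 bp, Foxc2 890.0 bp and Foxd3, a neural crest factor, 197 bp. Foxl2, a factor of ovarian granulosa cells, had 690.0 bp in WT_407 alone. Foxc1 had 5631 and 3461 bp in KO and 3853 and 3020 bp in WT. The 6 stroma and endothelium markers given above summed to more in both KO libraries. Cxcl12, Pecam1 and Pdgfrb had more in both, against 22.1% of all marked genes, and Col1a2, Lepr and Cdh5 overlapped. Cxcl12 had 1847 and 975 bp in KO and 910.0 and 861 bp in WT. The largest values were at Pecam1, with 6769 and 3564 bp in KO and 2481 and 2415 bp in WT. The part of these markers in the Foxc1 values was not tested.

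The share of H3K4me3 bases that also lay under H3K27me3 differed between genes. At Foxa1, Foxc1, Foxd1, Foxe3, Foxf1, Foxf2 and Foxq1, 100% of the H3K4me3 bases also lay under H3K27me3 in all 4 libraries. At Foxd2 the share was 43.8% and 47.3% in KO and 46.8% and 42.1% in WT. At Foxa3 it was 21.7% and 24.8% in KO and 33.5% and 45.4% in WT. At Foxp4 it was 20% and 22.9% in KO, and 24.8% and 23.0% in WT. At Foxo1 it was 81.6% in KO_399 and 100% in KO_401, WT_407 and WT_409. At Foxo6, Foxj1 and Foxp2 it was 76.8%, 54.4% and 26.7% in KO_399 and 100% in the other libraries. KO_399 had the fewest H3K27me3 bases at each of these 4 genes.

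Fixed lists of genes around the FOXO and FOXM1 factors were read in the same way. H3K4me3 lay at 22 of 22 FOXO regulators in all 4 libraries, with more covered bases in both KO libraries at 6 and fewer at none, against 22.1% and 3.63% of all marked genes. These 6 were Akt2, Pik3ca, Pdpk1, Insr, Mdm2 and Ep300. Mdm2, an E3 ligase that is also a p53 target, had 5814 and 4626 bp in KO, against 2953 and 3162 bp in WT. Of 23 FOXO targets 19 had H3K4me3 in any library, with more in both KO libraries at 6 and fewer at 1, Prdx3. The 6 were Sod2, Bcl6, Sesn1, Klf2, Pink1 and Bbc3. All 15 FOXM1 targets had it in all 4 libraries, with more in both KO libraries at Ccnb1, Cdc25b, Cdc20 and Bub1 and fewer at Cenpa. These counts lie near the shares over all marked genes. Among the regulators with H3K27me3 in any library, Akt1, Igf1r and Irs1 were lower in both KO libraries. The receptor gene Igf1r had none in KO and 1134 and 2450 bp in WT. Irs1, an insulin receptor substrate, had 4932 and 5549 bp in KO and 9951 and 7831 bp in WT. Of 8 targets with H3K27me3, 4 were lower in both KO libraries, against 70.0% of all marked genes. They were Sesn3, Klf2, S1pr1 and Fbxo32.

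The table held 7 further Fox genes. H3K27me3 was present in all 4 libraries at 5 of them, against 19.0% of all genes, and was lower in both KO libraries at 4 of the 5, against 70.0% of all marked genes. Foxd4 had 2332 and 6579 bp in KO and 9751 and 8728 bp in WT, and its H3K4me3 of 4761 and 4586 bp in KO was above the 3919 and 3780 bp in WT.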

How the data were processed

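Peaks of H3K27me3 and H3K4me3 had been called by the authors separately in each of 8 libraries. The submitters' processing notes name MACS2, Bowtie2, SAMtools, Trim Galore, FastQC and deepTools and the build mm10; versions, caller settings and the use of input are not given in the sources used here. The 4 input libraries were not analysed here. Each peak carries the authors' score, the authors' fold (a ratio of pileup to background) and deposited −log10 values of a p-value and a q-value. They served to rank, filter or describe peaks of a list, and single values were not compared between lists. They did enter comparisons between lists through the background at the summits, the cutoff at a fold of 8 and the lists cut to equal size. The summit offset in bp was not used. The background at a summit was solved from the deposited fold and p-value with a tolerance of 0.001 on the −log10 scale. No depth-based interval can be given for a covered length, and the lists hold only peaks above a fold of 5.

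Gene spans came from a RefSeq table of GRCm38.p6, which shares the coordinates of mm10, and start sites from its promoter windows. Covered bases, widest peaks and overlaps were computed in Python 3.11.15 with numpy 2.4.6, pandas 2.3.3 and scipy 1.17.1, with an overlap of 1 bp counted as marked, and were tested on simulated peaks. No test was run over the family. A gene was called lower or higher when both KO libraries lay on 1 side of both WT libraries, and is read against the share of all protein-coding genes. The p-values of 2 against 2 mice come from an exact permutation test. The labels name 2 mice per genotype by number, which are read as separate animals. The members and lists were chosen with earlier results of these data known. All 37 genes are accounted for; values in every library are given for genes with a mark in some libraries, the 10 largest separated differences per mark, the Foxo, Foxp, Foxk and Foxm1 genes and the widest peaks. Some results of the lists are not reported here. Genes named beyond this rule were chosen after their values were seen. Alternatives changed the window, the fold, the list sizes, the overlap, the merging of neighbours and the libraries.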

Additional observations from a re-analysis of the deposited data

How the results depend on the processing

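No paired analysis was possible because KO and WT mice share no replicate numbers. Of 18 values that answer a comparison and moved, most concern the window, the strength of peaks or single libraries. With windows of 2 and 10 kb in place of 5 kb, the mean H3K27me3 difference (KO minus WT) was -660.4 and -1751 bp per gene, and 11 genes were lower in both KO libraries at 2 kb; 6 had more H3K4me3 in both at 10 kb. With a fold of at least 8 the difference was -1527 bp, H3K4me3 was higher in both KO libraries at 0 genes, and 5 had both marks in all 4 libraries. With covered length made equal across libraries it was -527 bp, and for H3K4me3 -142 bp, against 218 bp. In these lists 14 genes had fewer and 1 had more H3K27me3 in both KO libraries, against 19 and 0 with the full lists. For H3K4me3, 4 had fewer and 0 more, and 7 genes had both marks in all 4 libraries. Foxo1 then turned to 1398 bp. The same number of peaks, at least 500 covered bases and merged windows (36 loci) moved none of the family's means beyond the spread between mice and none of its counts beyond 1.5 times, though single genes moved with the number of peaks, as given beside them. Joined peaks took the widest-peak difference to -1979 bp for H3K27me3, against -3146 bp, and to 112 bp for H3K4me3, against 39.1 bp. Leaving out 1 mouse at a time gave 19 to 22 genes with fewer and 0 with more H3K27me3 in KO, mean differences of -1487 to -723 bp in covered bases and -4386 to -1906 bp in the widest peak. For H3K4me3 it gave 0 to 14 genes with fewer and 4 to 22 with more, and differences of -185 to 620.4 bp and -149 to 227 bp. None of the counts in this section was made over all genes with the same alternative. The causes were not tested. With 2 mice per genotype, peaks under a fold of 5 unlisted and read totals unknown, small separations cannot be told from the spread between mice.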
